A study of Mus musculus with 2 samples.

Results

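Set E fibroblasts were barcodes of mouse skin fibroblasts in which a set of 4 genes, Rasgef1c, Cd55b, Adamts9 and Dcbld2, scored above every other fibroblast set. A barcode entered the fibroblast gate with at least 200 genes, at most 20% mitochondrial UMIs, at least 10 UMIs of Col1a1, Col1a2, Col3a1 and Dcn together, 0 UMIs of Ptprc and at most 2 UMIs of Krt5 and Krt14 together. For each of 6 sets of 4 genes, the counts per 10000 UMIs were summed, log transformed and turned into a z-score over the gated barcodes, and a member had its highest z in set E, with that z above 0. The rule took 727 of 3523 gated fibroblasts, or 20.6% (19.3 to 22.0, exact Clopper-Pearson 95% interval), and 8.69% of the 8367 barcodes in the matrix. The other 2796 gated fibroblasts were 645 of set F (Nova1, Nkain2, Zfpm2, Nox4), 874 of set D (Cxcl13, Vegfd, Adm, Mmp3), 302 of set A (Crabp1, Slc26a7, Dkk2, Notum), 436 of set B (Cilp, Thbs4, Myoc, Hmcn2), 442 of set C (Cyp2f2, C1qtnf3, Cyp26b1, Ecm2) and 97 with no z above 0.

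The cells came from skin of C57BL/6 mice aged 8 weeks, some of them depleted of neutrophils by antibody clone 1A8 against Ly6G on 2 days in a row and the others controls, at steady state. The skin was digested with Liberase and DNAseII, both conditions were tagged with hashtag antibodies and pooled, and the series holds 1 RNA library and 1 hashtag library of that pool, of which the hashtag library was not used here. The RNA matrix held 0 hashtag rows and 1 barcode suffix, so no barcode had a condition, and depleted and control skin cannot be told apart in any value given here. The number and sex of the mice are not given in the sources used here. With 1 library there was no replicate and no test: every interval covers counting error only, and every comparison describes these barcodes and not a difference between mice. Set E fibroblasts had a median of 13161 UMIs (991 to 35827) and 3637 genes, and the other gated fibroblasts had a median of 10918 UMIs (535 to 45314) and 3199.5 genes. Mitochondrial UMIs had a median of 1.04% in set E fibroblasts and 0.983% in the other fibroblasts, and the 4 gate genes had a median of 223 UMIs in set E fibroblasts and 236 in the others.

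Dermal fibroblasts make and turn over the collagen and proteoglycan matrix of the skin, and they differ by depth in the dermis and by their place around hair follicles, vessels and fascia. A state marked by genes such as Pi16 and Ly6a is found in many mouse tissues and is often called universal or adventitial. Fibroblasts also send signals to immune cells, among them chemokines that draw neutrophils and monocytes, and make hyaluronan, a long sugar polymer that is remade when tissue is injured. Of the genes that define set E, Rasgef1c encodes an exchange factor for small GTPases, Cd55b is a mouse paralog of the complement regulator Cd55, Adamts9 encodes a secreted protease that cleaves versican and aggrecan, and Dcbld2 encodes a transmembrane receptor-like protein with a domain order like that of the neuropilins.

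The values of these 4 genes chose the members and are a description only. Rasgef1c (chr11:49901835-49980994, plus strand, mm10) summed to 71.1 CPM (its UMIs per 1000000 UMIs of these barcodes) in set E fibroblasts and 6.61 CPM in the other gated fibroblasts, and 24.9% of set E fibroblasts and 4.36% of the others had a UMI. Cd55b (chr1:130388537-130423009, minus strand) had 77.2 CPM in set E and 9.01 CPM in the others, with a UMI in 32.7% of set E and 6.12% of the others. Both genes were thus seen in a minority of members. Adamts9 (chr6:92772699-92943492, minus strand) had 149 CPM in set E and 17.5 CPM in the others, with a UMI in 43.9% of set E and 10.6% of the others. Dcbld2 (chr16:58408443-58469727, plus strand) had 480.5 CPM in set E and 104 CPM in the others, and was found in 95.9% of set E and 52.7% of the others. The working name of these cells leads with Rasgef1c, but Dcbld2 was the set E gene that almost every member shared, and 231 of the 727 had UMIs of Dcbld2 and of no other set E gene.

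Members held UMIs of 1 set E gene in 249 barcodes, of 2 in 294, of 3 in 138 and of all 4 in 46. Depth went with that number: the median was 10852 UMIs with 1 gene, 14010.5 with 2, 14103 with 3 and 15627.5 with 4. A barcode with 0 UMIs of a gene is therefore not a cell shown to lack it. Rasgef1c and Cd55b were found together in 105 members, which was 58.0% of the members with Rasgef1c and 44.1% of those with Cd55b. Because of the uneven sharing, the cells are named here by their gene set and not by the first genes of the label. With each barcode thinned to 3000 UMIs, which left out 18 set E and 112 other fibroblasts, 13.4% of set E and 1.64% of the other fibroblasts had a Rasgef1c UMI (24.9% and 4.36% before thinning). Barcodes of keratinocytes (at least 10 UMIs of Krt5 and Krt14) and of leukocytes (a Ptprc UMI) should lack the gene, and 0.0977% of the keratinocyte barcodes (median 10797.5 UMIs) and 0.108% of the leukocyte barcodes (median 7663 UMIs) had a Rasgef1c UMI after thinning.

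The edge of the set was not sharp. The z of set E in members ran from 0.0212 to 3.90 with a median of 1.31, and its margin over the next best set had a median of 0.661, with 59 members under 0.1 and 271 under 0.5. Set F came next in 399 members, set D in 166, set A in 85, set C in 43 and set B in 34. The member nearest the edge had a z of 0.603 for set E and 0.602 for its next set with 5 set E UMIs, and the nearest barcode outside had 0.843 for set E and 0.846 for its own set, also with 5 set E UMIs. In all, 927 other fibroblasts had a set E z above 0, and 72 were within 0.1 of joining. The plot of the set scores shows members and non-members meeting along the diagonal without a gap.

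**Figure D1:**
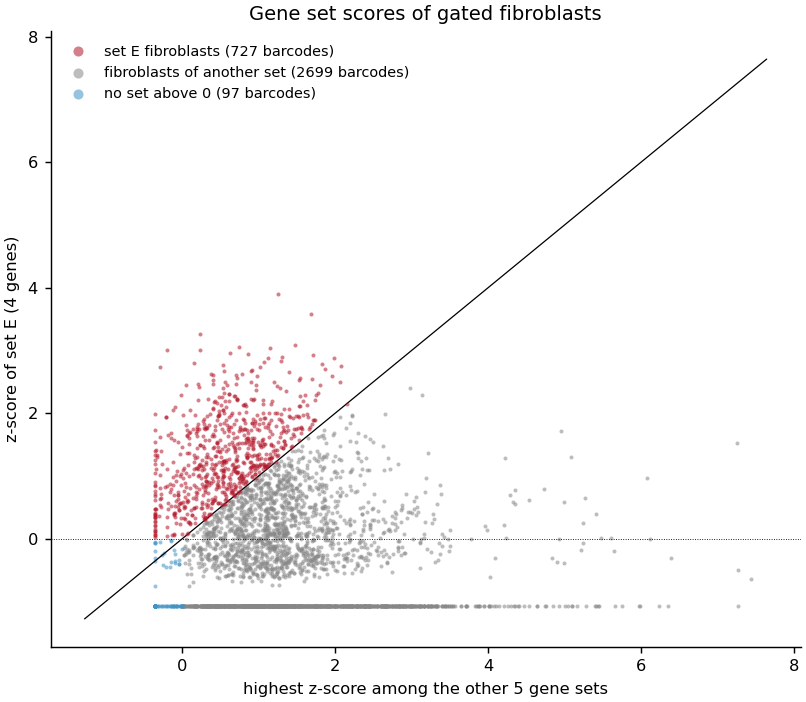
Each point is 1 gated fibroblast barcode, with its z-score for set E on the y axis and its highest z-score among the other 5 sets on the x axis (no units). The 727 set E fibroblasts lie above the diagonal of equal scores and above 0, against 2796 other fibroblasts below the diagonal or at or below 0, and the points run on across the diagonal.

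To look at a set E gene with members it had not chosen, each of the 4 was left out in turn and the members were picked again from the other 3. Rasgef1c was then 3.59-fold higher (95% interval 3.14 to 4.11) in the 722 barcodes picked without it, at 48.4 CPM against 13.5 CPM in the rest. Cd55b was 4.04-fold higher (3.56 to 4.58) in 716 barcodes, at 59.1 against 14.6 CPM. Both were higher in cells that they had not chosen. Adamts9 was 3.39-fold higher (3.10 to 3.71) in 724 barcodes, at 105 against 30.9 CPM. Dcbld2 was 2.44-fold higher (2.33 to 2.56) in 531 barcodes, of which 415 were members under the full rule, at 372 against 152 CPM. Each set E gene was thus higher in cells picked by the other 3, by less than the ratios of 4.63 to 10.8 that the full rule gives. The sets were proposed with these data in view, so these ratios are not independent support for the grouping.

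Over all genes, 12640 had at least 50 UMIs in the gated fibroblasts and were not among the 24 set genes or the gate genes. Of these, 545 (4.31%) were at 2-fold or more in set E fibroblasts over the others and 607 (4.80%) at 0.5-fold or less, and the median of all measured genes was -0.06 on the log2 scale with 0.5 UMIs added to each count. Summed profiles (log2 of CPM plus 1) of set E correlated across genes most with set F (Pearson r = 0.976), then set D (0.959), set B (0.948), set A (0.945) and set C (0.932), which is a description over genes of 1 library. Against set F alone, 306 of 11124 genes (2.75%) were at 2-fold or more in set E and 249 (2.24%) at 0.5-fold or less. The rule removed every cell that another set won, so genes that travel with those sets are low in set E in part by construction.

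Nptx2 encodes a secreted pentraxin best known at synapses. Outside the 24 set genes and the gate genes, it had the highest ratio among genes found in at least 10% of members. It had 45.5 CPM in set E fibroblasts, against 3.5 CPM in set F, 6.6 in set D, 1.9 in set A, 2.4 in set B and 8.9 in set C, and it was 9.29-fold higher (7.71 to 11.2) in set E than in the other gated fibroblasts together. Only 15.7% of set E fibroblasts and 3.11% of the others had a UMI, and 5 barcodes held 24.4% of the UMIs in set E. Gng4, a G protein gamma subunit, was 6.16-fold higher (4.94 to 7.70), at 24.7 CPM in set E and 4.02 CPM in the others. Zbtb46, a zinc finger transcription factor known as a marker of dendritic cells, had 42.6 CPM in set E and 9.04 CPM in the others, a ratio of 4.71 (4.04 to 5.50).

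Mpp7, a scaffold protein of cell junctions, was the most widely found of the 15 genes with the highest ratios. It had 309 CPM in set E fibroblasts and 77.2 CPM in the others, was 4.01-fold higher (3.80 to 4.23), and had a UMI in 60.0% of set E and 32.8% of the others. Dtna, a dystrophin-associated protein, had 36.3 CPM in set E and 8.76 CPM in the others, and Ttc21a, Aph1c, a gamma-secretase subunit, and St3gal6, a sialyltransferase, had ratios of 4.76, 4.21 and 4.08. The rest of the 15 were mainly RNAs with little annotation, among them the lincRNA B830012L14Rik at 138 CPM in set E and 33.7 CPM in the others, a ratio of 4.08 (3.76 to 4.43). Over set F, which was the most alike, the 15 ratios ran from 2.02 for A430010J10Rik to 13.0 for Nptx2.

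**Figure D2:**
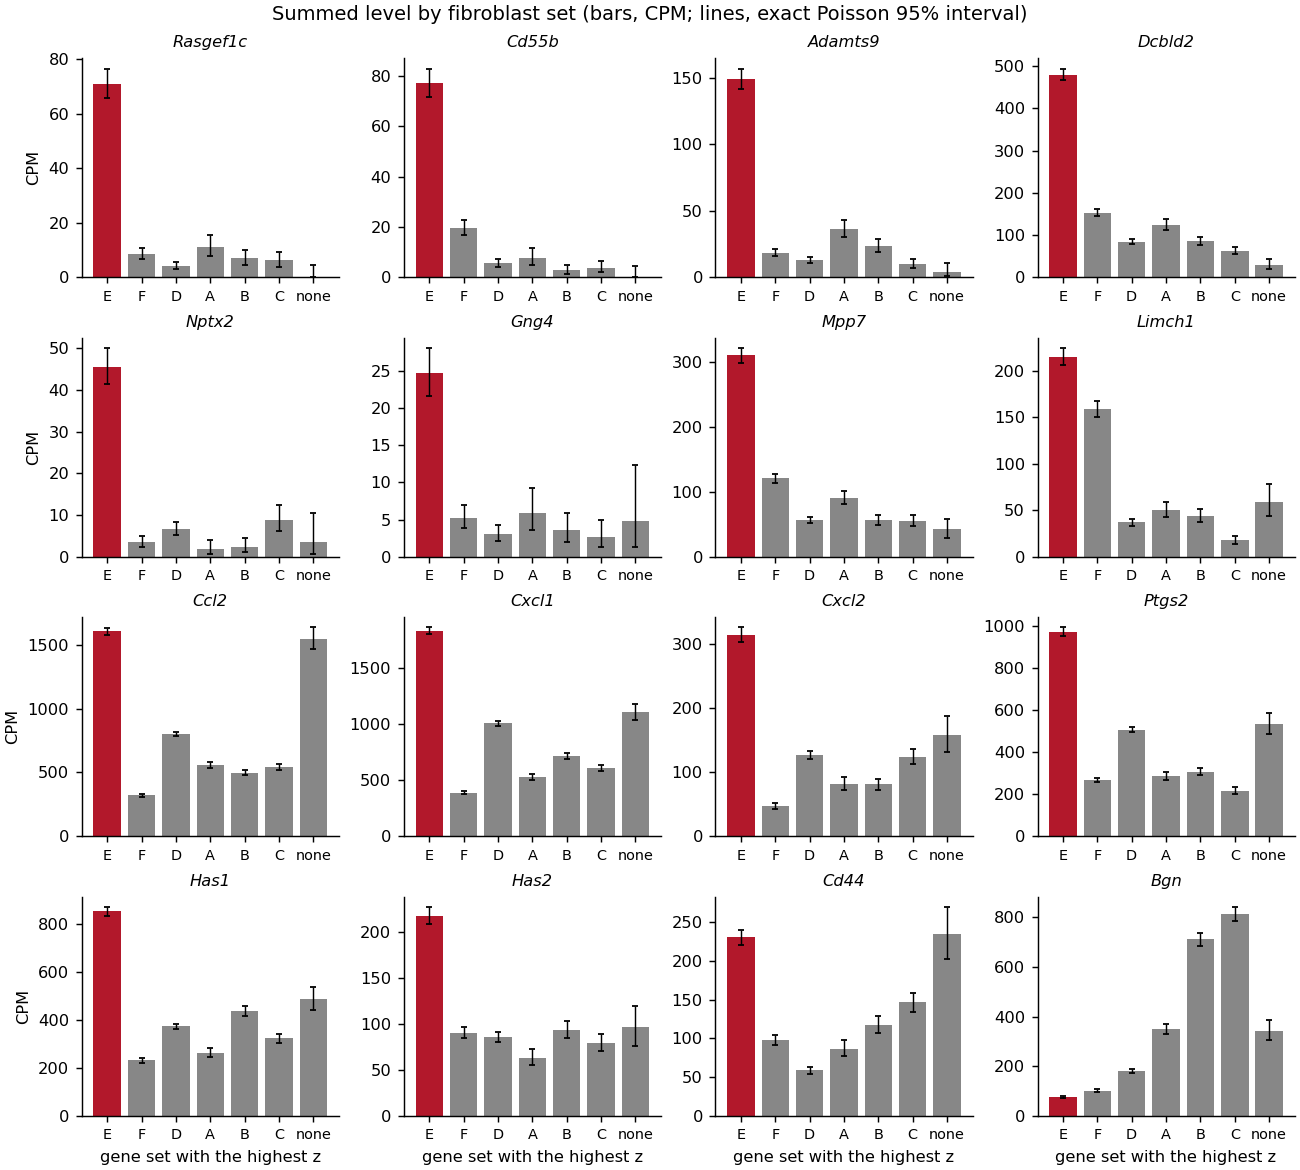
Bars give the level of 16 genes in CPM (y axes, each from 0) in the fibroblasts of each gene set (x axes), with set E at the left in red and lines for the exact Poisson 95% interval. The 4 set E genes stood highest in set E, which the rule fixes, and so did Nptx2, Gng4 and Mpp7, while Ccl2 in set E (1607 CPM) was close to the 97 fibroblasts of no set (1550.0 CPM), and Bgn was lowest in set E (74.9 CPM).

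The hyaluronan synthase genes Has1 and Has2 and the receptor gene Cd44 were past 2-fold in set E fibroblasts. They were 3 of 9 measured genes of the hyaluronan list, against 4.31% of all measured genes, and 0 were at 0.5-fold or less. The list median was 0.77 on the log2 scale against -0.06 over all measured genes. Another 9 of the 18 genes in the list had under 50 UMIs and were not measured. Has1 and Has2 were 2.60-fold (2.53 to 2.68) and 2.55-fold (2.41 to 2.70) higher. Has1 had 851 CPM in set E, against 231 in set F, 372 in set D, 262 in set A, 436.5 in set B and 323 in set C. Has2 had 218 CPM in set E, against 90.4 in set F, 86.1 in set D, 63.4 in set A, 93.9 in set B and 79.0 in set C. The set E level of Has1 and Has2 thus lay above sets A, B, C, D and F. Cd44, the main hyaluronan receptor, had 231 CPM in set E and 95.2 CPM in the others, although the 97 fibroblasts of no set had 235 CPM. Ugdh, which makes the UDP-glucuronate that hyaluronan is built from, was counted in the universal fibroblast list and was 2.75-fold higher (2.68 to 2.82), at 1122 CPM in set E and 408 CPM in the others, with a UMI in 96.6% of set E and 79.9% of the others. Tnfaip6, a secreted hyaluronan-binding protein, had 1259 CPM in set E and 740.5 CPM in the others, a ratio of 1.70 that did not reach 2-fold, and Itih5, which binds hyaluronan chains, was at 0.933.

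The chemokine list split into a high and a low side, with 4 of 16 measured genes at 2-fold or more and 3 at 0.5-fold or less. Over all measured genes the shares were 4.31% and 4.80%. Cxcl1 and Cxcl2, ligands of the neutrophil receptor Cxcr2, were 2.61-fold (2.56 to 2.66) and 3.33-fold (3.16 to 3.50) higher, and Ccl2, which draws monocytes, was 2.71-fold higher (2.65 to 2.77). Cxcl1 had 1829.7 CPM in set E, against 389 in set F, 1003 in set D, 529 in set A, 714 in set B and 607 in set C. Cxcl1 was found in 82.0% of set E and 52.3% of the other fibroblasts, and after thinning to 3000 UMIs in 69.5% of set E and 37.7% of the others, beside 2.64% of keratinocyte and 10.1% of leukocyte barcodes. For Cxcl2 and Ccl2 leukocytes were no low background: after thinning Cxcl2 was in 20.9% of set E, 7.75% of the other fibroblasts and 44.3% of leukocyte barcodes, and Ccl2 in 53.2% of set E, 27.8% of the others and 29.6% of leukocyte barcodes. Cxcl3 was 8.79-fold higher, but 5 barcodes held 96.0% of its 50 UMIs in set E. Ccl19, Cxcl12 and Cxcl14, which are made by fibroblasts at rest, were at 0.412-fold, 0.392-fold and 0.249-fold.

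The starts of Cxcl1, Cxcl2 and Has1 are printed here from RefSeq (GRCm38.p6, 300 bases each, ending just past the start and read on the gene's own strand) because these genes were at 2-fold or more in set E and their promoters, unlike most of those searched, hold a short motif of a known stimulus-responsive factor. Capitals mark GGAATTTCC, letters of a kappa-B site, in the chemokine promoters at chr5:90890995-90891294 and chr5:90903649-90903948, both on the plus strand, and TGACGTCA, the cAMP response element, in Has1 at chr17:17855139-17855438 on the minus strand.
Cxcl1: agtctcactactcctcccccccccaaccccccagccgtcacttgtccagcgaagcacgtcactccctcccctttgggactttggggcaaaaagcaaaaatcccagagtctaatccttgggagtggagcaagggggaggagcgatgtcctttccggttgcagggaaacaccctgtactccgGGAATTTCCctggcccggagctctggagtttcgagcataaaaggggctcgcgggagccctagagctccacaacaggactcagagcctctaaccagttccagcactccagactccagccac
Cxcl2: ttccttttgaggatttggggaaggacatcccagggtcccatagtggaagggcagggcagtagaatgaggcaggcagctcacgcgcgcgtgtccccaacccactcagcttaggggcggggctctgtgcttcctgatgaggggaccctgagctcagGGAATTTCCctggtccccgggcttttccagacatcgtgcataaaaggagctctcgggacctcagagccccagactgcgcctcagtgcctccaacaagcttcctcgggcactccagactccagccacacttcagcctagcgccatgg
Has1: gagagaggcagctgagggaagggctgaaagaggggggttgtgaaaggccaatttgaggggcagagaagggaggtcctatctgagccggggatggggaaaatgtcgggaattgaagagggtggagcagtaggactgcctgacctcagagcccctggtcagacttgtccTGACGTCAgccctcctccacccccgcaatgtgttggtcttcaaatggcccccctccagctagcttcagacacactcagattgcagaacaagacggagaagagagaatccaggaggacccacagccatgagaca
The motif letters were chosen after these promoters had been read, and both strands were searched without overlap between the motifs. GGAATTTCC or its reverse complement GGAAATTCC stood in 104 of 32851 RefSeq promoters (0.317%), TGACGTCA, its own reverse complement, in 588 (1.79%) and the AP-1 letters TGAGTCA or TGACTCA in 1709 (5.20%). In all, 24 windows of 20 genes were searched, those of set E, of the highest ratios and of the chemokine, cytokine and hyaluronan genes that the table holds. Besides the 3 printed, Cxcl3 held GGAATTTCC, and Zbtb46 and Il6 held AP-1 letters. The other 14 genes held none of the motifs, among them Ptgs2, Il33, Ugdh, Gng4, Ttc21a, Aph1c and St3gal6. The promoters of Rasgef1c, Cd55b, Adamts9 and Dcbld2 were also among those with none, which says only that these letters are not in those windows.

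Among cytokines and related genes, 6 of 21 measured were at 2-fold or more and 0 at 0.5-fold or less, with a list median of 0.49. Over all measured genes the shares were 4.31% and 4.80%. Ptgs2, the inducible prostaglandin synthase, had 973 CPM in set E, against 267 in set F, 507 in set D, 288 in set A, 306.5 in set B and 217 in set C, and was 2.72-fold higher (2.64 to 2.79) than in the others together. Il33, an alarmin held in the nucleus, had 146 CPM in set E and 53.0 CPM in the others, a ratio of 2.76 (2.57 to 2.96). After thinning, Il33 was in 28.8% of set E, 11.0% of the other fibroblasts and 25.5% of keratinocyte barcodes. The Il33 receptor gene Il1rl1 had 11.5 CPM in set E and 1.33 CPM in the others. Il1rl1 rested on few cells: 4.95% of set E fibroblasts had a UMI, 5 barcodes held 52.3% of its UMIs, and after thinning 1.83% of set E had one against 14.7% of barcodes with Ptprc. Csf2 likewise had 64.5% of its set E UMIs in 5 barcodes. Il6 had 288 CPM in set E and 164 CPM in the others and did not reach 2-fold, at 1.75 (1.67 to 1.84). The 2 remaining genes past 2-fold, Il34 at 2.06 and Il1b at 2.14, are named after their values were seen.

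The list of genes that tissue digestion is known to raise had a median of 0.22. Of its 28 measured genes, 3 were at 2-fold or more and 0 at 0.5-fold or less, against 4.31% and 4.80% of all measured genes. Fosl1 and Nr4a3, both early-response transcription factors, were 3.29-fold (2.87 to 3.78) and 2.65-fold (2.49 to 2.83) higher in set E, and Nr4a2 was at 2.01 (1.77 to 2.27). Egr1, a common sign of digestion, had 2010 CPM in set E and 1486 CPM in the others, a ratio of 1.35, and Klf4 had 1740.0 CPM in set E and 1013 CPM in the others. These genes moved in the same direction as Cxcl1, Cxcl2, Ccl2, Ptgs2 and Has1, and their part in those ratios was not tested.

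Markers of universal fibroblasts were on balance higher, with 6 of 30 measured at 2-fold or more, 0 at 0.5-fold or less and a median of 0.52. Has1, Ugdh and Il33, described above, were among the 6. Over all measured genes the shares were 4.31% and 4.80%. Limch1, an actin-binding protein, was 3.003-fold higher (2.83 to 3.19), but it had 215 CPM in set E, 159 in set F, 37.0 in set D, 44.1 in set B and 17.8 in set C. Igfbp5, a binding protein of insulin-like growth factors, had 2124 CPM in set E and 972 CPM in the others. The best-known genes of that state moved less: Pi16 had 2288 CPM in set E and 1584 CPM in the others (1.44-fold), and Ly6a had 2749 CPM in set E and 3602 CPM in the others (0.763-fold). Opcml, a cell adhesion protein, had 1809.9 CPM in set E and 1194 CPM in the others, and was at 0.834-fold over set F.

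Of 18 measured genes of the papillary dermis list, 11 were at 0.5-fold or less and 0 at 2-fold or more, against 4.80% and 4.31% of all measured genes, and the list median was -1.84. Its most abundant gene went the other way: Pdpn, podoplanin, had 300.03 CPM in set E and 209.6 CPM in the others, a ratio of 1.43 (1.37 to 1.496), and the next most abundant, Ntn1 and Apcdd1, were at 0.794 and 0.735. The list summed to 529 CPM in set E and 613 CPM in the others. Lef1, a Wnt-responsive factor of the upper dermis, had 4 UMIs over all set E fibroblasts and 237 in the others, and Wif1, a secreted Wnt inhibitor, had 0 UMIs in set E and 138 in the others. Reticular genes had 0 of 16 at 2-fold or more and 5 at 0.5-fold or less: the leptin receptor gene Lepr was at 0.0556 and Mgp, an inhibitor of calcification, at 0.0891, while Gpx3, a secreted peroxidase, had 1689.8 CPM in set E and 3223 CPM in the others and Clec3b was at 0.984. Perivascular genes had 0 of 12 and 4, with Col15a1 at 0.367 and Steap4 at 0.348, and hair follicle mesenchyme 1 of 15 and 6, with Acta2, the smooth muscle actin, at 4 UMIs in set E and 295 in the others. In the tendon list 5 of 10 were at 0.5-fold or less and 0 at 2-fold or more. Its scarce genes Mkx and Tnmd had 0 and 3 UMIs in set E, against 236 and 303 in the others, while the abundant Tppp3 and Ccn3 were at 1.22 (1.17 to 1.28) and 1.0005. Against set F alone, Gpx3, Steap4 and Col15a1 were at 0.748 (0.733 to 0.764), 0.639 (0.530 to 0.769) and 0.617 (0.539 to 0.705). For several other low genes the interval over set F took in 1. Mgp was at 0.888 (0.667 to 1.18), Lepr at 2.10 (0.586 to 9.32) and Acta2 at 0.746 (0.148 to 3.47). Lef1 was at 3.73 (0.369 to 184) and Tnmd at 2.80 (0.225 to 147). Low levels of these genes were thus not shown to be particular to set E.

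Among the genes with the lowest ratios were several of the matrix. Bgn, a small proteoglycan that binds collagen, had 74.9 CPM in set E, against 101 in set F, 181 in set D, 348 in set A, 711 in set B and 812.5 in set C, and was at 0.232-fold (0.214 to 0.250). Tgfbi, a matrix adhesion protein, had 26.3 CPM in set E, against 30.6 in set F, 42.9 in set D, 69.1 in set A, 342 in set B and 698 in set C. Gas6, a ligand of the TAM receptors, had 120.4 CPM in set E, against 245 in set F and 1043 in set C. All 3 were highest in set C, and the ratio depended on the set compared. Bgn was at 0.740-fold over set F (0.670 to 0.818) and 0.415-fold over set D (0.380 to 0.452). Tgfbi was at 0.860-fold over set F (0.721 to 1.03) and 0.613-fold over set D (0.523 to 0.716). The other genes with the lowest ratios were Slco2b1 (0.149), Prr16 (0.161), Angptl1 (0.245), Tmem176b (0.255), Sfrp1 (0.259), Serpina3n (0.284) and Pltp (0.297). Over set F, Slco2b1, an organic anion transporter, and Prr16 stayed at 0.264-fold and 0.288-fold. Sfrp1, Serpina3n and Tmem176b were at 0.606 (0.502 to 0.730), 0.596 (0.495 to 0.718) and 0.775 (0.627 to 0.956) over set F. Angptl1 and Pltp were near 1 there, at 0.870 (0.665 to 1.14) and 0.981 (0.754 to 1.28).

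Of 6 measured fibrillar collagens outside the gate, 0 were at 2-fold or more and 1 at 0.5-fold or less, and of 23 genes of collagen assembly 0 and 1. Col5a1 was at 1.02 (0.988 to 1.06), Col5a2 at 0.730 (0.706 to 0.755) and the collagen chaperone Serpinh1 at 0.951 (0.930 to 0.971). Lox, which crosslinks collagen and elastin, had 82.8 CPM in set E and 173 CPM in the others, and Mfap4, an elastic fibre protein, was at 0.0579-fold, with 84.1% of its 44 set E UMIs in 5 barcodes. Of 13 other collagens 0 were at 2-fold or more and 3 at 0.5-fold or less, and of 8 small leucine-rich proteoglycans 0 and 3, with the abundant Lum and Ogn at 0.743 and 0.827. Fn1, fibronectin, had 1901.8 CPM in set E and 1461 CPM in the others (1.30-fold) in the basement membrane and adhesion list, where 0 of 22 were at 2-fold or more and 2 at 0.5-fold or less. Elastic fibre genes had 0 of 19 at 2-fold or more and 2 at 0.5-fold or less, with Ltbp1, which holds latent TGF-beta in the matrix, at 1.88 (1.81 to 1.95). The metalloproteinases and their inhibitors counted 0 of 11 at 2-fold or more and 1 at 0.5-fold or less, and the gelatinase gene Mmp2 was at 1.01 (0.983 to 1.03). Over all measured genes 4.31% were at 2-fold or more and 4.80% at 0.5-fold or less. For a single list of 6 to 23 genes, a count of 0 at 2-fold or more is near the first share. The assembly, basement membrane, elastic fibre and metalloproteinase lists counted 1 or 2 genes each at 0.5-fold or less.

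**Figure D3:**
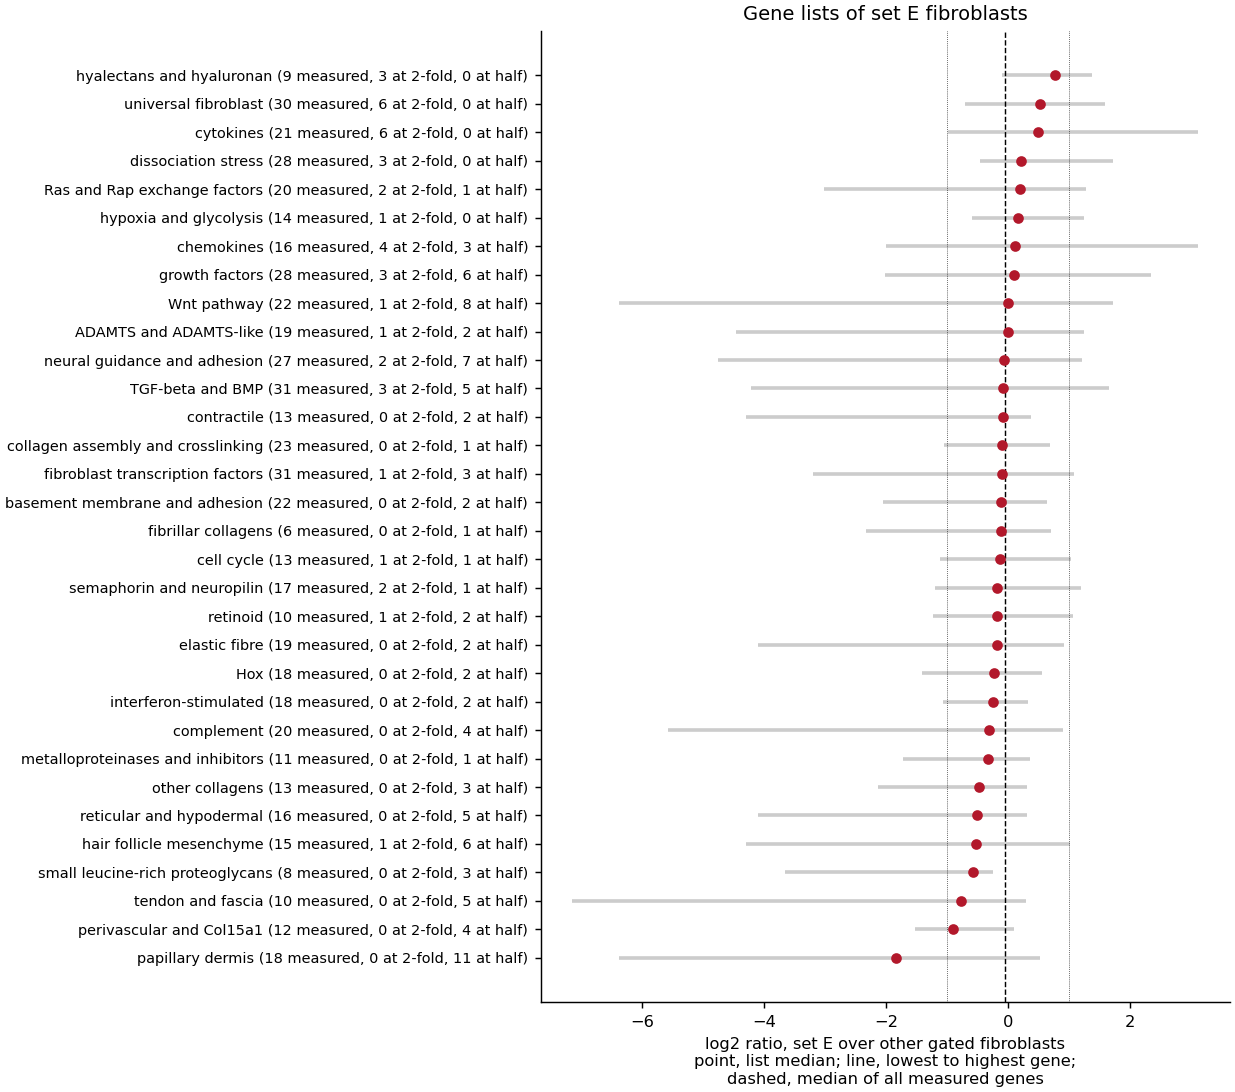
Each row is 1 of 32 gene lists, with the number of measured genes and the number at 2-fold or more and at 0.5-fold or less, and the x axis gives the log2 ratio of set E over the other gated fibroblasts. Points are list medians and lines run from the lowest to the highest gene, with the hyaluronan list at the top (0.77) and the papillary list at the bottom (-1.84), and the dashed line at the median of all measured genes (-0.06).

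Secreted signals lay on both sides, beside 4.31% of all measured genes at 2-fold or more and 4.80% at 0.5-fold or less. In the TGF-beta and BMP list 3 of 31 measured genes were at 2-fold or more and 5 at 0.5-fold or less: Bmp3 had 30.2 CPM in set E and 9.61 CPM in the others (3.14-fold, 2.66 to 3.71), and Bmp2 and Bmp6 were at 2.60 and 2.02. In the Wnt list 1 of 22 was at 2-fold or more, the ligand Wnt10b at 3.29 (2.85 to 3.80), and 8 were at 0.5-fold or less, among them the stem cell receptor Lgr5 at 0.0825 and the inhibitor Sfrp1. In the growth factor list, 6 of 28 genes were at 0.5-fold or less, among them Gas6, Angptl1, Igfbp3 at 0.341 and Igfbp7 at 0.439. On the high side, beside Igfbp5, Areg, a ligand of the epidermal growth factor receptor, was 5.09-fold higher (2.85 to 9.29), but 5 barcodes held 90.6% of its 32 UMIs in set E. Bmp2, Bmp6, Wnt10b, Igfbp3 and Igfbp7, like Ccl19 above, are named after their values were seen.

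Relatives of the set E genes did not all follow them. In the exchange factor list, 2 of 20 measured genes were at 2-fold or more and 1 at 0.5-fold or less. Over all measured genes the shares were 4.31% and 4.80%. Rasgef1a was at 2.41 (1.66 to 3.50) and Rasgef1b at 2.01 (1.51 to 2.67), both at under 9 CPM. The low gene, Rap1gap2 at 0.110, was counted in that list but encodes a GTPase-activating protein and not an exchange factor. Of 19 ADAMTS and ADAMTS-like genes 1 was at 2-fold or more, Adamts16 at 2.36 (1.94 to 2.87), and 2 at 0.5-fold or less. Adamts5, which like Adamts9 cleaves aggrecan, had 697 CPM in set E and 668 CPM in the others, a ratio of 1.04, and Adamts1 had 495 CPM in set E and 330.5 CPM in the others, a ratio of 1.497. Adamts16 had 18.8 CPM in set E and was at 0.869-fold over set F (0.704 to 1.07) and 12.1-fold over set D. In the semaphorin and neuropilin list Sema3e and Plxna2 were at 2.28 and 2.29 and Nrp2 at 0.432, out of 17 measured. Of 20 complement genes 0 were at 2-fold or more and 4 at 0.5-fold or less, and Cd55 had 790.4 CPM in set E and 424 CPM in the others, a ratio of 1.86 (1.81 to 1.92). Cd55 and Cd55b lie side by side and are paralogs, so how the counting split reads between them is uncertain.

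Genes beside the set E genes on the chromosome were read within 60000 bases, a window chosen after values had been seen. Next to Rasgef1c, Mapk9, a stress-activated kinase, had 248 CPM in set E and 76.6 CPM in the others, a ratio of 3.23 (3.05 to 3.42), and Rnf130 was at 0.941 (0.848 to 1.04). Next to Cd55b, the lincRNA Gm15675 was at 3.48 (3.23 to 3.74), the antisense RNA Gm15674 at 5.89 with 37 UMIs in set E, and Gm16083 at 1.17. St3gal6 overlaps the end of Dcbld2 by 1603 bases on the other strand and was at 4.08, and 9530026P05Rik, antisense to Adamts9, was at 1.37. The strand setting of the counting is not given in the sources used here. The part of reads from overlapping partners in these ratios was not tested.

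Fibroblast markers that the gate did not use were found in both groups. Lum had 896 CPM in set E and 1206 CPM in the others, and Pdgfra 275 CPM in set E and 387 CPM in the others. The marker counts that follow stand beside 4.31% of all measured genes at 2-fold or more and 4.80% at 0.5-fold or less. Of the 7 measured keratinocyte markers 0 were at 2-fold or more and 5 at 0.5-fold or less, and of 6 mast cell markers 0 and 3, although the mast cell protease genes Tpsb2, Cpa3 and Cma1 turned to 6.26-fold, 9.41-fold and 5.69-fold when Dcbld2 was left out of the rule. Of 10 measured myeloid markers 0 passed 2-fold in either direction, and they summed to 168 CPM in set E and 144 CPM in the others, and the neutrophil markers had no measured gene and summed to 1.16 CPM in set E and 1.77 CPM in the others. Skeletal muscle markers summed to 488 CPM in set E and 231 CPM in the others, and 4 of 8 were at 2-fold or more. The muscle UMIs lay in few barcodes: 6 of 727 set E fibroblasts and 23 of 2796 others had 10 or more, and without them the sums were 43.4 CPM in set E and 52.7 CPM in the others. Without these barcodes Ckm was at 0.819-fold, Mylpf at 0.673-fold, Tnnc2 at 0.861-fold and Tnnt3 at 0.995-fold, and with called doublets removed Ckm was at 0.453-fold. Scrublet called 9 set E fibroblasts (1.24%) and 44 others (1.57%) doublets.

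Pecam1, an adhesion molecule of endothelium, platelets and leukocytes, was the 1 endothelial marker at 2-fold or more of 5 measured. Flt1 was the 1 at 0.5-fold or less. Over all measured genes the shares were 4.31% and 4.80%. The list median was 0.50 on the log2 scale, against -0.06 over all measured genes. Pecam1 had 68.0 CPM in set E and 19.7 CPM in the others, a ratio of 3.46 (3.09 to 3.87). The defining endothelial genes Cdh5, Tie1, Vwf and Emcn had 1, 0, 0 and 0 UMIs over all set E fibroblasts, Flt1 had 6, and Kdr and Tek, which fibroblasts of other sets also held, were at 1.42 and 1.19. Prox1 had 21 UMIs in set E, at 2.22 CPM against 1.33 CPM in the others, and Lyve1 had 10 UMIs in set E. The 10 endothelial markers summed to 334 CPM in set E and 240 CPM in the others, and their part in the Pecam1 ratio was not tested. In set E, Pecam1 was higher in members with UMIs of more set E genes, which were also deeper. It had 8.6 CPM in members with 1 set E gene, 39.3 with 2, 173 with 3 and 180.5 with 4.

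Members were also compared by whether they had a Rasgef1c or Cd55b UMI, a division chosen after values had been seen. The 314 members with such a UMI (43.2%, median 14329.5 UMIs) were set against the 413 without (median 12347 UMIs). Of 9729 genes measured, 265 (2.72%) were at 2-fold or more with the UMI and 31 (0.319%) at 0.5-fold or less. Pecam1 had 137 CPM in members with the UMI and 7.89 CPM in those without, a ratio of 17.4 (12.6 to 24.6), with a Pecam1 UMI in 43.9% and 5.81%. The highest ratios belonged to genes known from other tissues. Gsg1l2 had 83 UMIs with and 0 without, at least 31.9-fold higher against a floor of 3 counts over the group without. Dnah12, an axonemal dynein of cilia, was 26.0-fold higher (13.4 to 57.8), with 46.2 CPM in members with the UMI and 1.77 CPM in those without. Terb2 and Hormad2, both known for roles in meiosis, were at 22.2 and 11.5, the glutamate receptor gene Grik4 at 15.6 and the phosphodiesterase gene Pde4c at 12.9 (9.05 to 19.1).

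The same division was then made in the other gated fibroblasts, which the rule had not taken: 267 had a Rasgef1c or Cd55b UMI (median 14190 UMIs) and 2529 did not (median 10520.0 UMIs). Of the 265 genes, 254 were measured there and 188 of these (74.0%) were at 2-fold or more, against 428 of 12120 (3.53%) of all measured genes (2.94% of which were at 0.5-fold or less), and the median ratio of the 254 was 2.78. Pecam1 had 86.8 CPM in non-members with the UMI, with a ratio of 8.71 (7.42 to 10.2), Dnah12 was at 11.5 (8.65 to 15.3) and Hormad2 at 13.8 (8.90 to 21.8). Both divisions use the same library and the same 2 genes, and cells with a UMI were deeper in both. The 265 genes were picked from this library, and like cells lay on both sides of the rule's edge. In cluster 8, described below, 114 barcodes had such a UMI and 74 of them were members. The agreement between the divisions is therefore a description and not independent support. Several chemokine and hyaluronan genes were close on both sides of the division: Cxcl1 had 1858 CPM in members with the UMI and 1805 CPM in those without, Has1 had 886 CPM with and 821 CPM without, and Il33 had 152 CPM with and 141 CPM without. Nptx2 had 35.0 CPM in members with the UMI and 54.6 CPM in those without, and Cxcl2 had 285 CPM with and 338 CPM without. Of the 265 genes, 138 were also among the 545 at 2-fold or more in set E over the other fibroblasts.

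**Figure D4:**
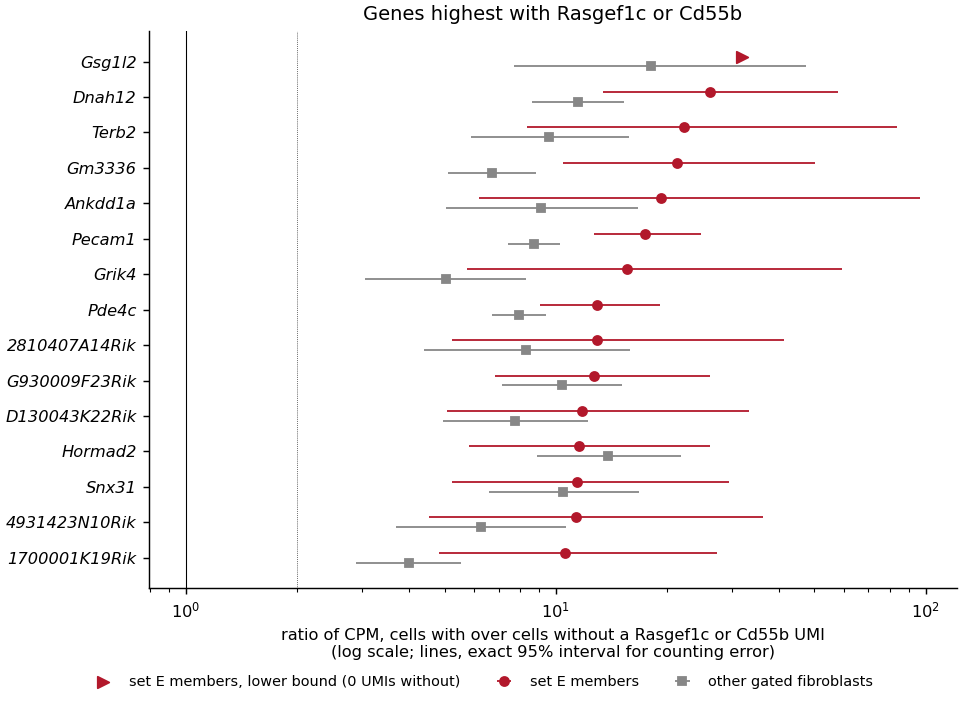
The x axis (log scale) gives the ratio of CPM in barcodes with over barcodes without a Rasgef1c or Cd55b UMI for the 15 genes with the highest ratios in set E members, with exact 95% intervals for counting error. Red circles are set E members, the red triangle is the lower bound of Gsg1l2, and grey squares are the other gated fibroblasts, where all 15 genes also lie above 2.

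Measures of RNA make-up differed between the sets. Ribosomal protein genes took 17.5% of the UMIs in set E, against 22.1% in set D and 17.4% to 18.1% in sets A, B, C and F, and the median mitochondrial share was 1.04% in set E, against 0.778% in set D and 1.46% in set C. The nuclear RNAs Malat1, Neat1 and Meg3 are named after their values were seen. Malat1 had 8369 CPM in set E, against 10841 in set F, 2627 in set D, 11492 in set A, 7031 in set B and 8735 in set C. Set E thus lay within the range of the other sets for Malat1, but above all of them for the other two RNAs. Neat1 had 360.3 CPM in set E and 158 CPM in the others, with 95.5 to 215 CPM in sets A, B, C, D and F, and Meg3 had 710.04 CPM in set E and 437 CPM in the others. The part of these measures in the ratios of set E was not tested. Within set E, Malat1 had 9637 CPM in members with a Rasgef1c or Cd55b UMI and 7271 CPM in those without, and its part in the division was not tested.

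Clustering of the gated fibroblasts without the 24 set genes and without the digestion list gave 14 clusters. Cluster 1 of 565 barcodes held 361 set E fibroblasts, which was 49.7% of the members and 63.9% of the cluster. Cluster 5 held 113 members among 336 barcodes, cluster 8 held 77 among 134 and cluster 0 held 58 among 679, and clusters 6 and 9 held 0. In cluster 8, singled out after its values were seen, 85.1% of the barcodes had a Rasgef1c or Cd55b UMI, and it held 23.6% of the members with such a UMI, at a median of 12819 UMIs. The members thus gathered in a few clusters and filled none of them. The clusters share the cells and the library with the rule, so this is a description.

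**Figure D5:**
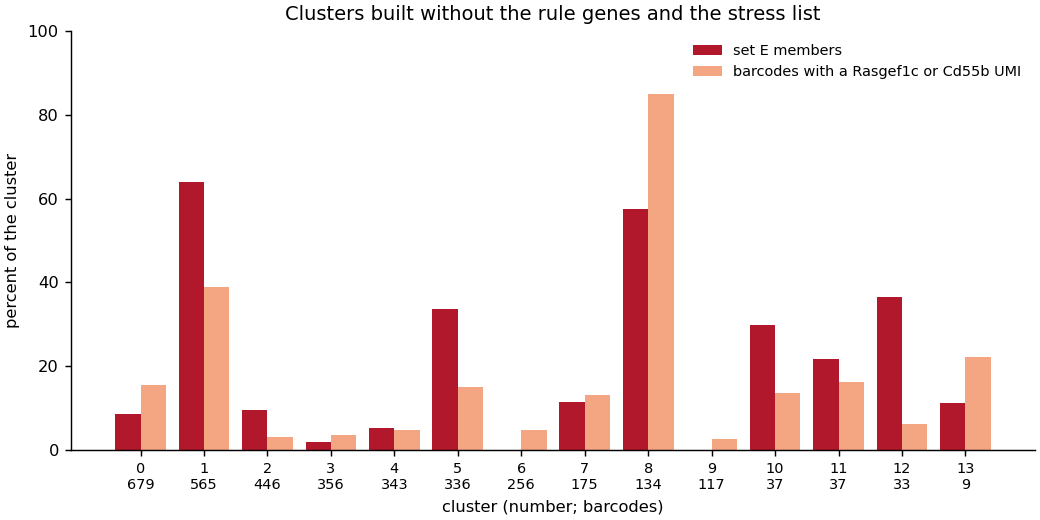
Bars give the percent of each of 14 clusters (x axis, number and barcodes) that were set E members (red) and that had a Rasgef1c or Cd55b UMI (light). Set E members reach 63.9% in cluster 1 and 57.5% in cluster 8, where 85.1% had a Rasgef1c or Cd55b UMI.

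The counts of the other lists follow, beside 4.31% of all measured genes at 2-fold or more and 4.80% at 0.5-fold or less. Interferon-stimulated genes had 0 of 18 measured at 2-fold or more and 2 at 0.5-fold or less, with Isg15 at 0.738 and Ifit3 at 0.492. Of 18 Hox genes, 0 were at 2-fold or more and 2 at 0.5-fold or less, with Hoxa9 at 0.373. The cell cycle list had 1 of 13 at 2-fold or more, Birc5 with 23 UMIs in set E, and 1 at 0.5-fold or less, Mki67 with 7 UMIs in set E, which was at 1.12 with called doublets removed. In the glycolysis list 1 of 14 was at 2-fold or more, the hexokinase Hk2 with 148 CPM in set E and 62.5 CPM in the others. Aldh1a3, which makes retinoic acid, was at 2.09 (1.96 to 2.23) among 10 retinoid genes, 2 of which were at 0.5-fold or less. Of 31 fibroblast transcription factors, 1 was at 2-fold or more, Tbx5 at 2.11 (named after its value was seen), and 3 were at 0.5-fold or less, with the Hedgehog effector Gli2 at 0.285. Of 27 neural guidance and adhesion genes, 2 were at 2-fold or more and 7 at 0.5-fold or less, with Slit2 at 0.229 and its receptor gene Robo2 at 0.036, although 94.4% of the 18 Robo2 UMIs in set E lay in 5 barcodes. Of 13 contractile genes, 0 were at 2-fold or more and 2 at 0.5-fold or less.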

How the data were processed

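The deposited matrix gives raw UMI counts, whole numbers for each gene in each barcode, of 1 pooled RNA library, made by the authors with Cell Ranger on mm10, per the submitters' processing notes; the version is not given in the sources used here. It held 8367 barcodes (500 to 58199 UMIs, median 9426) and 0 hashtag rows, so the 2 deposited samples gave no comparison of conditions. The members, gene lists and named genes were chosen with earlier results of these data known.

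UMIs were summed over set E and over the other gated fibroblasts and given as CPM, each ratio with an exact conditional Clopper-Pearson 95% interval and each level with an exact Poisson interval, all for counting error only. A gene was measured with at least 50 UMIs in the gated fibroblasts. No p-value was computed. Genes named are the 4 set E genes; the 15 highest ratios among genes with at least 20 UMIs and a UMI in at least 10% of members; the 10 lowest with a UMI in at least 20% of the others; and for each list the 3 most abundant and the 3 with the log2 ratio farthest from 0. The ratio step was tested on simulated data. Doublets were called with Scrublet (expected rate 6%), kept as the rule has it, and removed as an alternative. Clusters used 2000 variable genes, 30 principal components, 15 neighbours and Leiden resolution 1. Coordinates are GENCODE M21 (mm10) and promoters RefSeq GRCm38.p6. Python 3.11.15, NumPy 2.4.6, SciPy 1.17.1, pandas 2.3.3, Scanpy 1.11.5, scikit-learn 1.9.0, matplotlib 3.10.9, leidenalg 0.10.2 and igraph 0.11.9 were the tools. Alternatives changed the gate, the reading of the rule, the weight and depth of cells, the cells set against members, and the clustering. One gene of the growth factor list is not reported here.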

Additional observations from a re-analysis of the deposited data

How the results depend on the processing

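No paired analysis was possible because 1 pooled library carries no replicate numbers. Requiring UMIs of 2 or more set E genes left 478 members in place of 727, and the left-out ratios were then 4.93 for Rasgef1c and 2.14 for Dcbld2, while a set z above 1 gave 5.08 for Cd55b and 3.87 for Adamts9. Thinning to 3000 UMIs gave 331 genes at 2-fold or more in place of 545 and 5 lists with more high than low genes in place of 8, with fewer genes measured. With no filter on UMIs there were 2984 genes at 2-fold or more and 4192 at 0.5-fold or less. The share of members in their largest cluster was 64.5% at resolution 0.5, 37.6% at resolution 2 and 40.7% with the digestion list kept, against 49.7%. Ratios crossed 1 for Mki67 (1.12), Mylpf (0.256), Tnnc2 (0.336), Ckm (0.453) and Tnnt3 (0.421) with doublets removed. They also crossed 1 for Mylpf (0.883) with Cd55b left out of the rule, and for Adamts8 (1.32), Tpsb2 (6.26), Cpa3 (9.41) and Cma1 (5.69) with Dcbld2 left out. Without barcodes with 10 or more muscle UMIs, an alternative chosen after seeing the data, Mylpf was at 0.673, Tnnc2 at 0.861, Ckm at 0.819 and Tnnt3 at 0.995. The cause was not tested. Of 47 named genes at 2-fold or more, 32 to 47 stayed there over 14 alternatives, and of 67 at 0.5-fold or less, 53 to 67, lowest for both with Dcbld2 left out. One library, low UMI counts per gene and shared cells limit every value, and a UMI count of 0 in a barcode does not show that the gene is off.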
